A study of Arabidopsis thaliana with 6 samples.

Results

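Cysteine-rich receptor-like kinases (CRKs) of Arabidopsis thaliana were described in RNA counts per gene from whole seedlings. The members were 40 identifiers of the family, chosen by name, of which 39 had a row among the 26800 identifiers kept and all 39 passed the filter on low counts. CRK33 (AT4G11490) was not analysed here. Of the 40 members, 36 lie on chromosome 4, and 20 of these form a tandem array from AT4G23130 to AT4G23320 that spans 74.2 kb (chr4:12117491-12191704, TAIR10.1).

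A CRK is a membrane protein with an extracellular part built on a cysteine motif called DUF26, a membrane span and a kinase domain inside the cell. Many CRK genes are known to respond to pathogens, salicylate and reactive oxygen species, and raised levels of some members trigger cell death. Proteins of the family act beside other immune receptors at the cell surface and on NADPH oxidases, which make extracellular reactive oxygen.

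Each library came from whole seedlings after 12 days of growth at 22 °C, in light of 100 µmol·m-2·s-1, on half-strength MS medium with 1% agar and 1% sucrose. The wild type was the accession Col-0 (3 libraries), and the other group bore the label vih1vih2 (3 libraries), which names the double mutant that lacks the kinases producing the signalling molecule InsP8. Neither the alleles of the double mutant nor the number of seedlings in a library was stated in the labels. Nor do they say whether replicates were grown separately, and the p-values then measure a spread that may be technical. Total counts kept were 42697387 to 64410871 per library, and 1 count was worth 0.0165 to 0.0245 CPM (TMM-scaled CPM, the unit of level used here, which sets counts against the library total). The targeted genes went against the label, since VIH2 (AT3G01310) had 2310 to 2783 counts in wild type and 33783 to 38660 in the libraries labelled vih1vih2, and VIH1 (AT5G15070) had 246 to 361 against 1524 to 1820. Counts per gene say nothing of whether the RNA is whole, and each direction given here rests on the label.

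The family name was checked against the cysteine motif. Annotated coding sequences were searched in frame for a cysteine codon (TGT or TGC), 8 codons, another cysteine codon, 2 codons and a last cysteine codon, 39 bases in all. All 40 members held it, 38 of them at least 2 times, whereas 0.478% of 27422 coding sequences of the genome held it at least 2 times. CRK24 and CRK27 held it 1 time, CRK23 held it 3 times and EMB1290, also called CRK17, 4 times. The last 2 in EMB1290 are the same bases as both copies of CRK16, since the annotated genes overlap. EP1, also called CRK9, has 265 codons where CRK7 has 659, and it held 2 motifs. The first copy is shown for members on which the results turn, 5′ to 3′ on the coding strand, with the cysteine codons in capitals (RefSeq, TAIR10.1).
CRK7, chr4:12125983-12126021, plus strand: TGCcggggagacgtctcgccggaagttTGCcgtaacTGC
EP1 (CRK9), chr4:12135457-12135495, plus strand: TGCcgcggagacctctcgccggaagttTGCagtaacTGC
CRK36, chr4:2234375-2234413, minus strand: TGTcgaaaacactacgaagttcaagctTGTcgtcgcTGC
CRK37, chr4:2238648-2238686, plus strand: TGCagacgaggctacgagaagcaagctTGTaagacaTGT
CRK28, chr4:11401404-11401442, minus strand: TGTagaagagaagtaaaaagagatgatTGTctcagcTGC
CRK26, chr4:18122585-18122623, plus strand: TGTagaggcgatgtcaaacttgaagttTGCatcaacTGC
CRK2, chr1:26587032-26587070, minus strand: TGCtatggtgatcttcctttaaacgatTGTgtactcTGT

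More CRK genes were higher than lower in the libraries labelled vih1vih2. In edgeR's quasi-likelihood test, adjusted after Benjamini and Hochberg over all 22818 genes tested, 23 of 39 members rose and 4 fell, with a median log2 fold change (vih1vih2 over wild type) of 0.93. Over all genes tested, 21.4% rose and 19.4% fell (40.9% in either direction), with a median of −0.00. The family was taken up with this contrast already known, so its calls and values are given as a description, and nothing is read from the share called. By at least 2-fold, 17 members rose and 1 fell, beside 11.3% and 7.43% of all genes. The 3 libraries of a group did not overlap those of the other for 25 members that were higher and 7 that were lower, beside 28.9% and 27.5% of all genes (56.4% either way). In whole seedlings, a change in the cells that express a gene and a change in RNA per cell cannot be told apart.

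Low counts bear on these numbers. Of the 39 members, 9 passed the filter on low counts through the libraries labelled vih1vih2 alone and 1, CRK32, through wild type alone. Each of these was tested through its counts in that group, which favours members that are high there. Among the 29 members with at least 10 counts in every library, 16 rose and 4 fell, with a median log2 fold change of 0.50. Among all 20764 genes so counted, 20.4% rose and 20.5% fell, with a median of −0.02. In wild type 12 members were under 1 CPM, and in the libraries labelled vih1vih2 6 were.

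**Figure D1:**
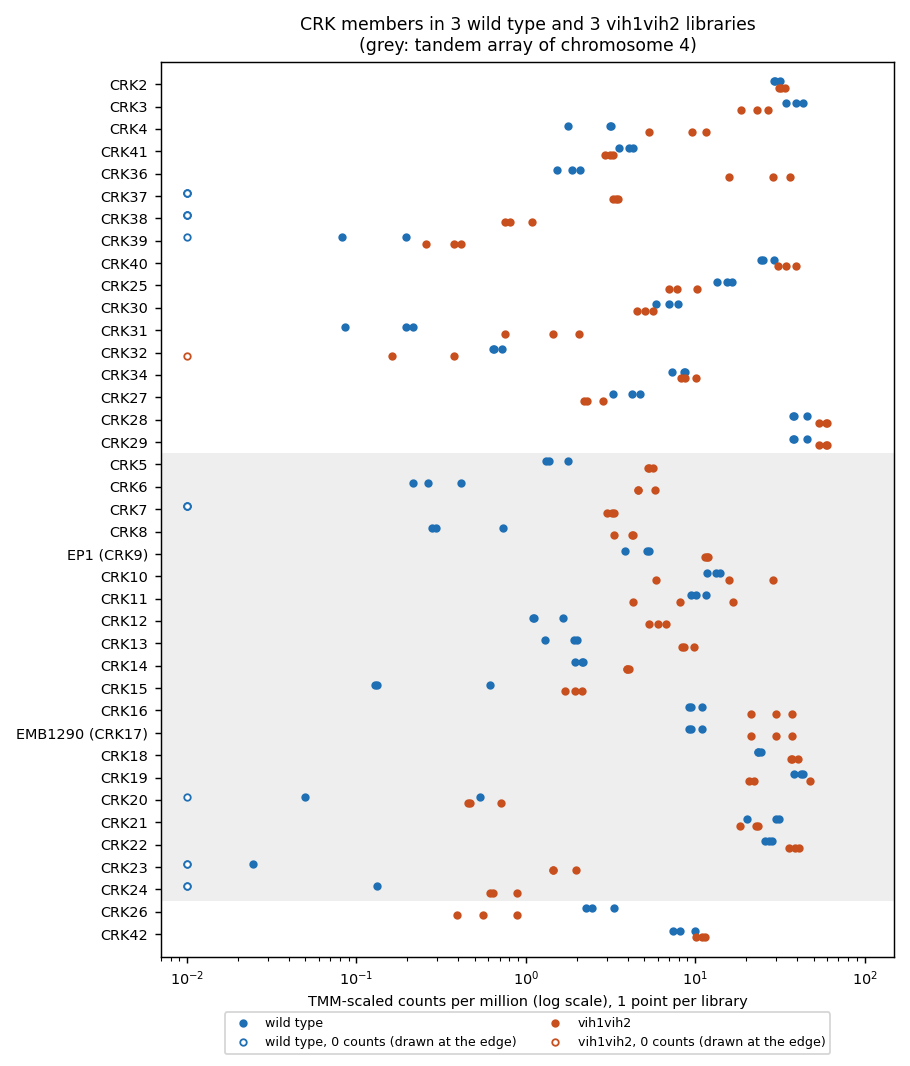
TMM-scaled CPM (log axis) of the 39 CRK members in order of identifier, with 1 point per library, wild type in blue, vih1vih2 in orange, open points for 0 counts drawn at the edge and the tandem array shaded. CRK7, CRK37 and CRK38 have open points in all 3 wild type libraries, while CRK10, CRK11 and CRK19 have orange points on both sides of the blue ones or among them.

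The tandem array held most of the members that rose. Of its 20 members 15 rose and none fell, with a median log2 fold change of 1.59, beside 21.4% of all genes that rose and 19.4% that fell. CRK16 and EMB1290 (CRK17) have the same counts, and their shared value is that median. With copied rows collapsed, 14 of 19 array members rose. CRK7, CRK15, CRK23 and CRK24, which rose, and CRK20 passed the filter on low counts through the libraries labelled vih1vih2 alone. Of the 15 array members with at least 10 counts in every library 11 rose, with a median of 1.29. None of the 20 fell at an unadjusted p under 0.05, by DESeq2 or by limma-voom either. Outside the array 8 of 19 tested members rose and 4 fell, with a median of 0.35. Whether array and other members differ was not tested, since the members were chosen with these values known.

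CRK7, which takes part with CRK6 in responses to extracellular reactive oxygen, had no count in any wild type library. In the libraries labelled vih1vih2 it had 167, 164 and 178 counts. Against a floor of 3 counts over the wild type group, which covers counting error only, CRK7 was at least 157-fold higher. The groups of this member lie far apart, with 3.003 to 3.34 CPM on the higher side.

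CRK6 had 16, 10 and 17 counts in wild type and 257, 294 and 245 in the libraries labelled vih1vih2, and its log2 fold change was 4.07 ± 0.28 (SE, n = 3 per group). CRK8, the next gene but one, had 17, 34 and 12 counts in wild type and 237, 219 and 178 in the others. Its log2 fold change was 3.19 ± 0.42, or 3.77 without wild type 2. In both genes every library labelled vih1vih2 lay above every wild type library. CRK6 and CRK8 are partly alike: 22.0% of the 50-base stretches in the exons of CRK6 occur more than 1 time in the genome, and 16.5% of those of CRK8, mostly in each other. Reads from such stretches could be split between them or left out, so the separate values of these 2 genes are uncertain. EP1 (CRK9), the short member beside them, rose from 3.84, 5.17 and 5.34 CPM to 11.4, 11.7 and 11.9 CPM (log2 fold change 1.29 ± 0.15).

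CRK5, raised levels of which are known to trigger cell death, stood at 1.77, 1.38 and 1.32 CPM in wild type and at 5.36, 5.26 and 5.62 CPM in the libraries labelled vih1vih2. The change was 1.86 ± 0.15 on the log2 scale, with groups that did not overlap. CRK12 went from 1.65, 1.12 and 1.10 CPM to 5.34, 6.70 and 6.05 CPM (2.22 ± 0.21). CRK13, known for raising resistance to bacteria when it is overexpressed, went from 1.31, 2.00 and 1.94 CPM to 8.33, 8.59 and 9.90 CPM (2.36 ± 0.20). CRK14 rose less, from 1.96 to 2.17 CPM up to 3.94 to 4.08 CPM (0.93 ± 0.11). None of these 4 genes had groups that overlapped.

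CRK16 and EMB1290 (CRK17) hold the same counts in all 6 libraries, so they are a single measurement listed under both names. Their annotated genes overlap by 1190 bases on the minus strand. The shared values were 9.44, 10.9 and 9.17 CPM in wild type and 29.9, 37.3 and 21.5 CPM in the libraries labelled vih1vih2, a log2 fold change of 1.59 ± 0.22. Counted as a single row, the members that rose numbered 21 of 37 once the like pair CRK28 and CRK29 was merged too.

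CRK18 and CRK22, which were among the best counted members, rose by less than 2-fold. CRK18 went from 23.4, 23.5 and 24.4 CPM to 37.4, 36.9 and 40.3 CPM (log2 fold change 0.68 ± 0.07). CRK22 went from 27.3, 28.5 and 25.7 CPM to 39.04, 35.9 and 40.8 CPM (0.51 ± 0.08). The spread inside each group was small beside the change in both. CRK22 shares 365 of its 50-base stretches with CRK13, so the counts of that pair could be split.

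CRK15, CRK23 and CRK24 rose from very low wild type counts and are less certain. CRK15 had 8, 6 and 25 counts in wild type and 108, 86 and 115 in the others (log2 fold change 2.77 ± 0.64). Its call went when wild type 1, wild type 2, vih1vih2 1 or vih1vih2 3 was omitted (2.39, 2.42, 2.76 and 2.67), and the value was 3.85 without wild type 3. CRK23 had 0, 0 and 1 counts against 81, 73 and 106, a ratio of 240 with a 95% counting interval of 42.8 to 9535; the fitted value was 7.45, 6.86 without wild type 1 and 9.44 without wild type 3. CRK24 had 8, 0 and 0 counts against 34, 45 and 34 (3.75 ± 1.01). The call of CRK24 was lost without wild type 2 or 3 or any library labelled vih1vih2 (3.23 and 3.28, then 3.86, 3.58 and 3.84), and the fitted value was 8.14 without wild type 1, where no wild type count remained.

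**Figure D2:**
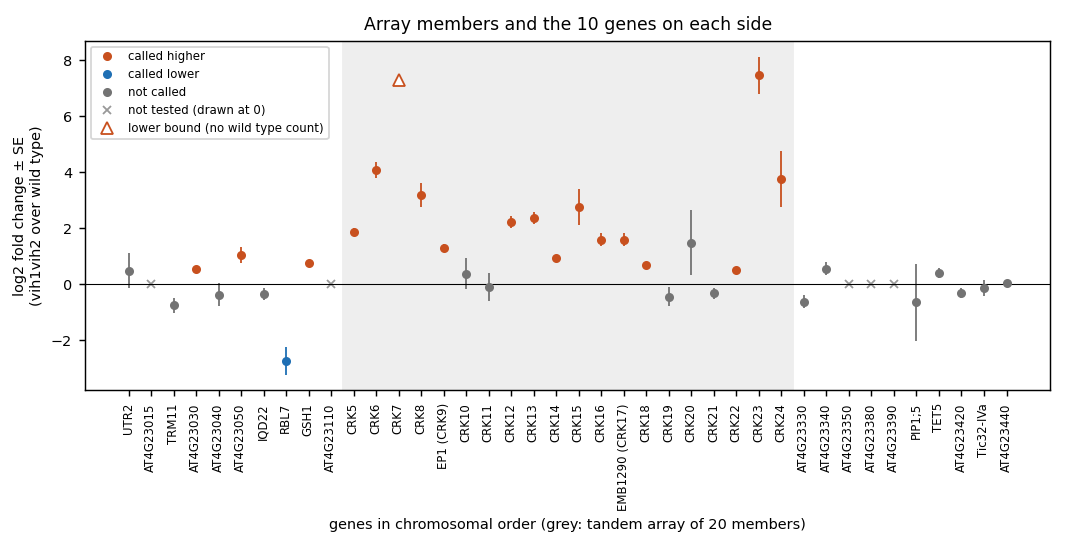
Log2 fold change ± SE (vih1vih2 over wild type) of the 20 array members and of the 10 protein-coding genes with a row on each side, in chromosomal order, with the array shaded and the bound of CRK7 as a triangle. The 15 members called higher lie on both sides of CRK10 and CRK11 and on both sides of CRK19, CRK20 and CRK21, while the 7 tested genes after the array include none that was called.

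The genes on either side of the array were read off the same fit, in which 21.4% of all genes rose and 19.4% fell. Of 8 tested genes among the 10 before the array 3 rose and 1 fell (median log2 fold change 0.06), and without 1 library 1 to 4 rose (1 without vih1vih2 2). GSH1, the first enzyme of glutathione synthesis, went from 123 ± 5.38 to 205 ± 4.83 CPM (0.74 ± 0.05), and RBL7 was at −2.74 ± 0.49. Of the 10 genes after the array 7 were tested (median −0.14) and none was called by edgeR or limma-voom, while 1 was lower at an unadjusted p under 0.05 and by DESeq2. Without wild type 1 or 3, 1 of them was called lower (PIP1;5 at −1.23 and AT4G23330 at −0.83). No test compared these neighbours with the array.

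CRK10, CRK11, CRK19, CRK20 and CRK21 are the 5 array members that were not called. CRK10, a gain-of-function allele of which collapses xylem vessels, stood at 14.0, 11.7 and 13.4 CPM in wild type and at 15.8, 28.7 and 5.85 CPM in the libraries labelled vih1vih2. CRK11 stood at 11.6, 10.2 and 9.48 CPM against 8.09, 4.31 and 16.7 CPM. In vih1vih2 2 CRK10 was at its highest and CRK11 at its lowest, and in vih1vih2 3 the order was turned round. The annotated genes of this pair run towards each other and overlap by 32 bases at their ends. How counting treated strand was not stated in the notes, and its part in these values was not tested. The sum of the pair was 21.8 to 25.6 CPM in wild type and 22.5 to 33.0 CPM in the others.

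CRK19, a member known to trigger cell death when overexpressed, stood at 42.0, 43.2 and 38.5 CPM in wild type and at 20.7, 47.5 and 22.1 CPM in the libraries labelled vih1vih2. The libraries vih1vih2 1 and 3 lay below wild type and vih1vih2 2 above it, so the groups overlapped (log2 fold change −0.45 ± 0.35). Without vih1vih2 2 the value was −0.95, which was called, so that 1 array member fell. CRK21 was at 20.1 to 31.2 CPM and 18.3 to 23.5 CPM (−0.33 ± 0.20). CRK20 had 3, 25 and 0 counts against 26, 23 and 38 (1.47 ± 1.16), and it was called higher without wild type 2, at 4.14.

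**Figure D3:**
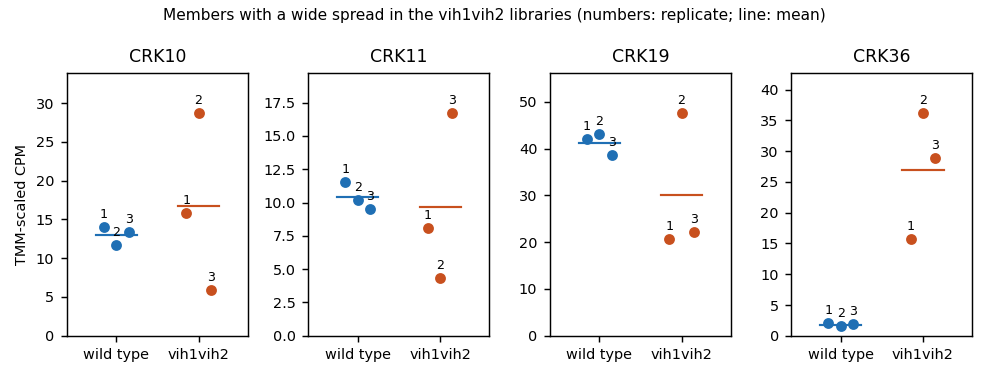
CPM (TMM-scaled, linear axis from 0) of CRK10, CRK11, CRK19 and CRK36 in each library, numbered by replicate, with the mean of each group as a line. CRK10 and CRK11 take opposite orders in vih1vih2 2 and vih1vih2 3, CRK19 is high in vih1vih2 2 alone of its group, and all 3 orange points of CRK36 lie above its blue ones.

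The coefficient of variation (SD over mean) in the libraries labelled vih1vih2 was 68.3% for CRK10, 65.4% for CRK11 and 50.1% for CRK19. In wild type it was 9.29%, 10.2% and 5.84% for the same genes. Over the 33 members of at least 1 CPM in the libraries labelled vih1vih2 its median was 12.0%, and over the 20422 genes so counted it was 9.88%. Of these 33 members 4 exceeded 42.6%, which 10% of those genes passed. In wild type none of 27 exceeded the like value of 43.4%.

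Summed over the array, with copied rows taken 1 time, the level was 171, 161 and 164 CPM in wild type and 220, 268 and 224 CPM in the libraries labelled vih1vih2. The summed level of the other members was 191, 198 and 183 CPM against 216, 235 and 237 CPM. In both sums the groups did not overlap, and the ratio of means was 1.44 for the array and 1.201 for the others. The best counted members make up most of each sum.

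Outside the array, the members at AT4G04490 to AT4G04570 (CRK36 to CRK40, within 61.2 kb of chromosome 4) included 4 of 5 that rose, beside 21.4% of all genes. CRK37 and CRK38, which rose, and CRK39 passed the filter on low counts through the libraries labelled vih1vih2 alone. CRK36, which phosphorylates the immune kinase BIK1, went from 2.10, 1.53 and 1.86 CPM to 15.8, 36.2 and 28.9 CPM. Its log2 fold change was 3.88 ± 0.36, with the lowest value of the higher group in vih1vih2 1. CRK37 had no count in wild type and 190, 166 and 188 counts in the others, and was at least 168-fold higher against 3 counts over the group. CRK38 had none against 42, 41 and 58, at least 43.5-fold higher. CRK37 and CRK38 are neighbours on the plus strand with 1150 bases between them, and both lacked any count in all 3 wild type libraries.

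CRK39, the next member, had 5, 0 and 8 counts in wild type and 21, 13 and 22 in the libraries labelled vih1vih2. The groups did not overlap, yet the change of 1.93 ± 0.89 was not called. CRK40, the best counted of the locus, went from 25.02, 29.2 and 24.3 CPM to 34.2, 30.9 and 39.5 CPM (0.41 ± 0.13). Omitting wild type 1, wild type 3, vih1vih2 1 or vih1vih2 3 ended its call (0.38, 0.36, 0.43 and 0.31).

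**Figure D4:**
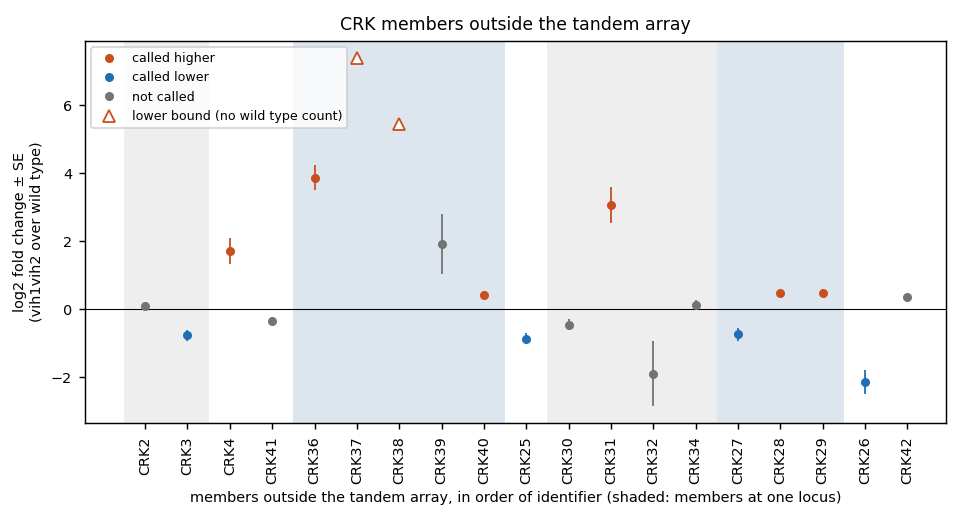
Log2 fold change ± SE (vih1vih2 over wild type) of the 19 tested members outside the array, in order of identifier, with members of a locus shaded and the bounds of CRK37 and CRK38 as triangles. CRK36, CRK37 and CRK38 stand highest with CRK31, and CRK3, CRK25, CRK26 and CRK27 are the 4 that fell.

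CRK28 and CRK29 hold the same counts in all 6 libraries, and their annotated genes overlap by 470 bases. CRK28 is known to associate with the co-receptor BAK1. The shared values were 38.4, 46.0 and 37.9 CPM in wild type and 60.0, 53.7 and 58.9 CPM in the libraries labelled vih1vih2 (log2 fold change 0.50 ± 0.10). The groups did not overlap, but which gene gave the counts cannot be told apart. CRK27, at the same locus, fell from 3.26, 4.69 and 4.26 CPM to 2.19, 2.86 and 2.29 CPM (−0.73 ± 0.19), a call that ended on omission of wild type 2, wild type 3, vih1vih2 1 or vih1vih2 3 (−0.62, −0.70, −0.66 and −0.69).

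Of the 4 tested members at AT4G11460 to AT4G11530, CRK31 alone was called. It had 13, 4 and 8 counts in wild type and 42, 73 and 110 in the others, a log2 fold change of 3.07 ± 0.54. CRK32, the next gene, had 44, 30 and 26 counts against 9, 0 and 20 (−1.89 ± 0.95, not called). CRK31 passed the filter on low counts through the libraries labelled vih1vih2 alone and CRK32 through wild type alone, so nothing is read from their opposite directions. CRK30 was at −0.45 ± 0.16 and CRK34 at 0.14 ± 0.13, neither called, although CRK30 was called lower without wild type 3, at −0.56.

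The other members that fell were CRK26, CRK25 and CRK3. CRK26 went from 2.27, 2.48 and 3.33 CPM to 0.881, 0.394 and 0.562 CPM, and its log2 fold change of −2.13 ± 0.35 was the lowest of any called member. CRK25 went from 15.3, 13.5 and 16.4 CPM to 7.82, 6.99 and 10.2 CPM (−0.86 ± 0.17). CRK3 went from 43.0, 39.4 and 34.2 CPM to 23.1, 26.98 and 18.6 CPM (−0.76 ± 0.16), a call lost without wild type 1, at −0.69. None of these 3 had groups that overlapped. CRK2, which lies 762 bases from CRK3 on the same strand and is known to phosphorylate the NADPH oxidase RBOHD, stood at 29.7, 31.6 and 29.1 CPM against 32.3, 31.2 and 34.0 CPM (0.11 ± 0.07, not called).

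CRK4, on chromosome 3, is a further member known to trigger cell death when overexpressed. It went from 3.16, 3.16 and 1.76 CPM to 5.32, 11.6 and 9.63 CPM (1.71 ± 0.38), a call lost without vih1vih2 3, at 1.64. CRK41 was at −0.35 ± 0.12 and CRK42 at 0.35 ± 0.14, neither called, although CRK42 was called higher without wild type 3, at 0.48.

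Levels of different members were compared per kilobase of annotated exon. In wild type CRK19 stood highest at 15.7 ± 0.920 CPM per kb, followed by CRK3 at 13.5 ± 1.55, the shared row of CRK28 and CRK29 at 13.4 ± 1.48 and CRK2 at 12.5 ± 0.556. The lowest library of CRK19, at 14.7, lay below the highest of CRK3, at 14.99, and CRK3, the shared row and CRK2 overlapped as well. In the libraries labelled vih1vih2 the order began with the row of CRK28 and CRK29 at 18.9 ± 1.11 CPM per kb. CRK18 at 17.3 ± 0.838 and CRK22 at 14.8 ± 0.960 came next. The lowest library of the CRK28 and CRK29 row, at 17.6, lay below the highest of CRK18, at 18.2. That row was set against the exon length of CRK28 alone. If both genes gave its counts, its level per kb would be lower, so its place in either order is uncertain. The libraries of CRK22, from 13.8 to 15.7, lay within the range of CRK19, from 7.90 to 18.1. They also lay within that of the row of CRK16 and EMB1290 by the length of CRK16, from 10.6 to 18.4. By the length of EMB1290 that row stood at 9.49, from 6.90 to 12.0. CRK36 stood at 0.807 ± 0.127 CPM per kb in wild type and at 11.9 ± 4.56 in the others, with libraries from 6.95 to 15.9. Exon lengths came from RefSeq, which may differ from the models behind the counts.

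WRKY transcription factors are known to bind the W-box, with the core TTGAC, and CRK promoters are known among their targets. The 250 bases before the annotated start of each gene were searched for TTGAC on both strands. Of the 40 members 30 held it (75.0%), and 17 held it at least 2 times (42.5%), while 44.9% of 27437 protein-coding genes held it and 14.1% did at least 2 times. The members that rose held it in 18 of 23 cases, those that fell in 3 of 4 and those not called in 8 of 12. Among all genes called higher 48.3% held it, and among all tested genes 45.2%. The windows of CRK15, CRK24, CRK25, CRK26, CRK28, CRK29 and CRK34 hold exon bases of another gene. For CRK14, CRK15 and CRK33 no untranslated exon is annotated, so their windows end where the coding sequence begins. The motif GNATATNC, to which the phosphate starvation regulator PHR1 binds, was found in 3 of the 40 windows (7.50%) and in 5.46% of all. These matches are a description of letters and show no binding. The windows of CRK38, CRK23 and CRK24, which rose from 0 or near 0, held TTGAC 1, 1 and 2 times and are not shown. The windows below are examples from CRK36 and from CRK7, CRK6 and CRK37, which rose from 0 or low wild type counts. Windows of CRK11, which held TTGAC most often, and of CRK3, which fell, are shown too. Each reads 5′ to 3′ towards the gene, with TTGAC (or GTCAA, its reverse complement) and GNATATNC in capitals (RefSeq, TAIR10.1).
CRK7, chr4:12125414-12125663, plus strand: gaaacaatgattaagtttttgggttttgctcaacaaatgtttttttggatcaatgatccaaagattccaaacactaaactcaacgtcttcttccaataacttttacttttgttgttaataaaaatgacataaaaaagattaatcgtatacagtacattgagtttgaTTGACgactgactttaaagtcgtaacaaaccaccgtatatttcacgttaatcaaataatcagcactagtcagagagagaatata
CRK6, chr4:12121119-12121368, plus strand: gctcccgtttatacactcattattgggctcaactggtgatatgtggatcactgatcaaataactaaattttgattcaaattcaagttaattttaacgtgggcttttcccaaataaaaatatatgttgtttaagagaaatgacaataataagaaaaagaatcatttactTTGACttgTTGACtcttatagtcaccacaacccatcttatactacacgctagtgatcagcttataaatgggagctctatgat
CRK37, chr4:2238120-2238369, plus strand: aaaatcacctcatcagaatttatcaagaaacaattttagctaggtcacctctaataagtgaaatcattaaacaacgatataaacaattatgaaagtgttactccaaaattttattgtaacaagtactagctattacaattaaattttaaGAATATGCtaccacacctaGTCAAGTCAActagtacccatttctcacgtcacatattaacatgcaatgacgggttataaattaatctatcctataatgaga
CRK36, chr4:2234690-2234939, minus strand: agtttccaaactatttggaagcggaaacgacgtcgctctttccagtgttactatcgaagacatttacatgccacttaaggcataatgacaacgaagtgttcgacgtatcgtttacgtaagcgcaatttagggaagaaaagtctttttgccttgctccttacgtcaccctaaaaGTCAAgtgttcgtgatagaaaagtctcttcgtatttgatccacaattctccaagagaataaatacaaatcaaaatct
CRK11, chr4:12143859-12144108, minus strand: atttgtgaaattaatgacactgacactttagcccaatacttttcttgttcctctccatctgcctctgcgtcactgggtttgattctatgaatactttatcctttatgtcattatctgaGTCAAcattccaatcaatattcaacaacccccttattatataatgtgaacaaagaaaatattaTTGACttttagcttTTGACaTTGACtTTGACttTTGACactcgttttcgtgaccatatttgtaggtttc
CRK3, chr1:26591777-26592026, minus strand: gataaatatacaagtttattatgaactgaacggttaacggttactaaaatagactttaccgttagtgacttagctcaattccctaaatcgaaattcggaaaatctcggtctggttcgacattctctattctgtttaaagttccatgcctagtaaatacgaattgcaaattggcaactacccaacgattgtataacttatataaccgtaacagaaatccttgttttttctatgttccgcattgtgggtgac
CRK11 held TTGAC 6 times, 5 of them close together near the start. It was not called, with 4.31 to 16.7 CPM in the libraries labelled vih1vih2. CRK37 held 2 that adjoin on the reverse strand and the GNATATNC match GAATATGC, CRK6 held 2, CRK7 and CRK36 held 1 each, and CRK3 held none. CRK12, CRK13, CRK22, CRK28 and CRK40, which rose, also held none. Whether the motif bears on the level of any member was not tested.

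Relatives and partners of the family changed in both directions, beside 21.4% of all genes that rose and 19.4% that fell. Of 6 further CRK genes 3 were tested: ARCK1 (AT4G11890), a cytosolic kinase that pairs with CRK36, went from 1.16 ± 0.193 to 4.83 ± 2.43 CPM (2.06 ± 0.48), a call lost without any library except vih1vih2 3, with values of 1.82 to 2.15. AT1G70740 and AT4G00960 were not called, at 0.38 ± 0.15 and −1.41 ± 0.98, although AT1G70740 was without vih1vih2 3 (0.51). Of the 8 plasmodesmata-located proteins, which carry the same extracellular motif without a kinase, 1 rose and 2 fell, with a median of −0.24. PDLP1 went from 2.24 ± 0.528 to 10.2 ± 1.75 CPM (2.18 ± 0.23), while PDLP7 went from 8.02 ± 0.649 to 0.306 ± 0.0585 CPM (−4.70 ± 0.19). The other that fell was HWI1, also called PDLP5, at −0.67 ± 0.18, whose call was lost without any wild type library or vih1vih2 3 (−0.66, −0.69, −0.68 and −0.70).

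Over all genes tested 21.4% rose and 19.4% fell, to be set beside each list here. Of 12 cell surface immune receptors and co-receptors 6 rose and none fell, with a median log2 fold change of 0.89. None fell at an unadjusted p under 0.05, by DESeq2 or by limma-voom either. Without 1 library 6 to 8 of them rose (8 without vih1vih2 3). The median of this list lies between 2 uncalled genes that were far lower in wild type 2 than in wild type 1 and 3. These genes stood at 2.78 and 9.41 CPM in wild type 2, and at 49.1 to 56.9 CPM in wild type 1 and 3. PEPR2, a receptor of Pep danger peptides, rose by 1.31 ± 0.11, the co-receptor SOBIR1 by 1.179 ± 0.06 and EFR, the receptor of bacterial EF-Tu, by 1.04 ± 0.15. A further list held 12 genes for kinases, NADPH oxidases and ubiquitin ligases, with a median of 0.17. Of these 4 rose and 2 fell, or 1 to 3 without 1 library (3 without wild type 2). The kinase gene FRK1 rose by 1.32 ± 0.24 and BIK1 by 0.99 ± 0.08, while PBL1, the nearest relative of BIK1, was at −0.72 ± 0.13. The other that fell, MPK6 at −0.28 ± 0.07, lost its call without any library except wild type 2 (−0.29 to −0.23). RBOHD stood at 57.4 ± 4.28 and 108 ± 47.1 CPM and was not called (0.91 ± 0.37), but was without vih1vih2 2 (1.23). Of 12 salicylate response genes 6 rose and 2 fell (median 0.96), with PR5 at 1.63 ± 0.11. PR1, the classical salicylate marker, had no count in wild type and 1158, 1051 and 1051 counts in the others, at least 1005-fold higher against 3 counts over the group. BGL2, another of the 6, had 39, 23 and 27 counts against 29, 8531 and 8925, so its groups overlapped, and omission of any library except vih1vih2 1 ended its call (7.12 to 7.601). The 2 that fell, EDS1 and NPR1 at −0.25 ± 0.07 and −0.27 ± 0.07, were both uncalled once wild type 1 or 3, or vih1vih2 1 or 2, was left out, and EDS1 also did without wild type 2 (−0.28 to −0.21). Of 12 WRKY genes 6 rose and 2 fell (median 0.93), with WRKY48 at 2.999 ± 0.16 and WRKY40 at −1.36 ± 0.13. WRKY38, also among the 6, had 4, 12 and 4 counts against 24, 44 and 25, and omission of any library except wild type 2 ended its call (1.68 to 2.24).

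Organ markers also moved, beside 21.4% of all genes that rose and 19.4% that fell. Of 8 root markers 1 rose and 4 fell (median −0.23), and their summed level was 150 to 176 CPM in wild type and 139 to 144 CPM in the libraries labelled vih1vih2. The riser, WOX5 at 0.87 ± 0.22, was no longer called when wild type 1 or 3, or vih1vih2 2 or 3, was left out (0.70, 0.90, 0.81 and 0.80). Of 8 markers of leaf and photosynthetic tissue 4 fell (median −0.28) and none rose by edgeR or limma-voom, while 1 was higher at an unadjusted p under 0.05 and by DESeq2. Their summed level was 41350 to 42311 CPM against 17054 to 17244 CPM, set mostly by CAB1, and FMA was called higher without wild type 2 or 3 (0.90 and 0.44). No marker of either list was at 0 in a group. Their part in the values of the CRK genes was not tested.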

How the data were processed

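Per the file headers and values, the authors deposited raw counts for each gene in 6 library columns (3 wild type, 3 labelled vih1vih2). The submitters' processing notes name CASAVA 1.4 along with StringTie 1.3.3b, STAR 2.5.3a and the TAIR10 build. The tool behind the counts, its strand setting and its annotation: not given in the sources used here. All 280 identifiers of 6 digits among the 27080 rows repeated the counts of their first 5 digits' row and were dropped. Of the 26800 kept, 26505 matched a locus tag of RefSeq TAIR10.1, which gave symbols, coordinates, exon lengths and sequences, since the deposited counts carry no coordinates.

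Counts were fitted in R 4.3.3 with edgeR 4.0.16 (filterByExpr, TMM, glmQLFit and glmQLFTest with group as the sole term, Benjamini-Hochberg threshold of 0.05). Each SE was taken as |log2 fold change|/√F. A bound for a gene with no count in a group uses 3 counts over that group. The fit was tested on simulated data. Alternatives were DESeq2 1.42.0 (size factors, and its Wald test), voom from limma 3.58.1, other filters, robust moderation, collapsed copied rows, leaving out a library, and a block for replicate number. Members and lists were chosen with earlier results of these data known. All members and array neighbours may be named, any gene of a list of 8 or fewer, and from longer lists the 3 called genes of largest change each way and the best counted uncalled gene. Intervals and floors cover counting error only. Plots used matplotlib 3.10.9 under Python 3.11.15.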

Additional observations from a re-analysis of the deposited data

How the results depend on the processing

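Of the 39 tested members, 23 rose and 4 fell; with DESeq2 size factors, robust moderation or limma-voom the counts were again 23 and 4, with no filter 21 and 4, with copied rows collapsed 21 and 4 of 37, and by the DESeq2 Wald test 24 and 6. A filter of 5 CPM in 3 libraries, which tested 23 members, left 13 higher and 2 lower, 8 of 12 array members higher and a median log2 fold change of 0.50, since fewer low genes were tested. Without 1 library 19 to 22 members rose and 3 to 5 fell, the median was 0.88 to 0.95, and 13 to 14 array members rose and 0 to 1 fell. Same-numbered libraries correlated at 0.03, −0.03 and −0.01 in their deviations from the group means, so no shared effect of replicate number was seen. These correlations cannot tell whether the samples were grown in pairs. With the replicate number as a block 17 members rose and 4 fell, and 14 array members rose. The block ended the calls of CRK4, CRK24, CRK38, CRK40 and the shared row of CRK28 and CRK29. Over all genes, the block left 3463 higher and 3020 lower where the fit without it had 4891 and 4433. No alternative reversed a member's called direction. Counts under about 10 per library limit CRK15, CRK20, CRK23, CRK24, CRK31, CRK32 and CRK39. They also limit CRK7, CRK37 and CRK38, which had no wild type count.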
